A study of Mus musculus with 9 samples.

Results

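The 48 genes described here are secreted proteins, enzymes and a transcription factor of the hepatocyte. They were read in RNA of tumors that were grown from an endothelial cell line in the right flank of mice and not in the liver. They were taken by gene symbol from a list of liver genes, and all 48 had a row among the 24421 gene rows of the count table. The list was selected on measured values, since it was known when it was drawn up that several of its genes were higher in R-propranolol-treated tumors. The differences between the treatments below are therefore descriptions, and nothing is supported with them. At least 1 read was counted for 47 members, and Mup20 had none in any tumor. Of the 48, 32 had enough reads to be fitted and 16 did not.

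The tumors were allografts of bEnd.3, a line of mouse brain endothelial cells transformed by the polyoma middle T antigen, which serves as a model of vascular tumors such as hemangioma. They grew in male athymic Nu/Nu nude mice, which lack T cells but keep other immune cells, blood vessels and connective tissue of the host. The treated group of 5 tumors came from mice given R-propranolol, the enantiomer of propranolol with little activity at beta-adrenergic receptors, by intraperitoneal injection at 6 mg/kg per day on 5 days a week, and the vehicle group of 4 tumors came from mice given ethanol in phosphate-buffered saline on the same days. All tumors derive from 1 cell line, so they are replicates of the graft and host and not of independent tumor lines, and the titles of vehicle replicates 1 and 2 share a number whose meaning the labels do not give, and both were treated as tumors of their own.

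Hepatocytes make most proteins of the blood plasma. They secrete albumin, which holds water in the circulation and carries fatty acids, together with carriers of iron, heme, thyroid hormone and retinol, the apolipoproteins of lipoprotein particles, inhibitors of proteases, and the factors of clotting and fibrinolysis. The same cells carry out the urea cycle, gluconeogenesis and oxidation by cytochrome P450 enzymes. Many of these genes share control by the transcription factors HNF1, HNF4, FOXA and C/EBP, and a smaller number, among them Pck1, Cyp2e1, Rbp4 and Trf, are also transcribed outside the liver.

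The start regions of 5 members are shown because these genes stand for the patterns that the counts turned on. Alb, Fgb and Serpina1a varied together across tumors, while Afp and Apob were read at a high level in nearly all tumors. Each sequence is the 150 bases before the start of the gene in RefSeq on GRCm38.p6, in the direction of transcription, or for Apob the 150 bases before its first exon. Capitals mark matches to GTTAAT, the half-site of HNF1, to TTNNGCAA, bound by C/EBP proteins, and to TATAAA, the TATA box, searched on both strands.
Alb, chr5:90460720-90460869, plus strand: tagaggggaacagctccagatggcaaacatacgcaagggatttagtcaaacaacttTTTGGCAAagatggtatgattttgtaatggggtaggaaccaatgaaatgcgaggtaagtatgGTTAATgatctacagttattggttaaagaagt
Fgb, chr3:83049864-83050013, minus strand: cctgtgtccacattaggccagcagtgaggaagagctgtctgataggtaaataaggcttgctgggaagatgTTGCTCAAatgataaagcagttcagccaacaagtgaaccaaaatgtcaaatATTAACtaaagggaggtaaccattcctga
Serpina1a, chr12:103863620-103863769, minus strand: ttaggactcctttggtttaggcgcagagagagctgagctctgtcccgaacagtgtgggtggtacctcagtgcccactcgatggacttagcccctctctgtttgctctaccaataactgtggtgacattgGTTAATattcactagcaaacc
Afp, chr5:90490564-90490713, plus strand: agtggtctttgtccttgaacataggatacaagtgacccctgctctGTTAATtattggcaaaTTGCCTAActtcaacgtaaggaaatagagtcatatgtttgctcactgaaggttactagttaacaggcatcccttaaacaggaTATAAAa
Apob, chr12:7977498-7977647, plus strand: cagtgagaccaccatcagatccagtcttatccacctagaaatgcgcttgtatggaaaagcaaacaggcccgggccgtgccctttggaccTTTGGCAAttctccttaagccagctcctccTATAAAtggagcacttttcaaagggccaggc

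The HNF1 half-site of Alb lay 32 to 27 bases before its start, and that of Fgb, read on the other strand, 29 to 24 bases before. Serpina1a had its match 21 to 16 bases before the start and no match to the C/EBP letters in the window shown. Afp, which lies next to Alb on chromosome 5, held all 3 motifs, so the letters that Alb shares with its neighbor were also present in a gene whose counts did not follow those of Alb. RefSeq start regions were found for 38 of the 48 members. In the 250 bases before the start, the half-site GTTAAT was present in 12 of these 38 (31.58%), against 6.52% of all 27025 start regions, and the C/EBP letters in 12 of 38 (31.58%), against 9.55%. TATAAA was present in 10 members (26.32%, against 12.97%), the FOXA motif TGTTTAC in 4 (10.53%, against 3.09%) and the HNF4 motif CAAAGTCC in 1, Cyp3a11 (2.63%, against 1.22%). Serpina1a to Serpina1e, nearly identical copies, were each counted among the matches to GTTAAT. Serpina1b, Serpina1d and Serpina1e were each counted among those to the C/EBP letters. Such copies are not independent, so the shares of members are raised by them, and nothing is read from the comparison. These are matches of letters and not measured sites of binding.

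The tumors had 21084749 to 27852630 counts over genes with R-propranolol and 20599904 to 24949010 with vehicle, from 1 library each. The levels below are counts scaled to library size by TMM (CPM). R-propranolol replicate 5 stood apart from the others. A list of 20 skeletal muscle genes summed to 218656 CPM in that tumor, against 41.8 to 66.0 CPM in R-propranolol replicates 1 to 4 and 62.3 to 549 CPM in vehicle-treated tumors, and 13 adipocyte genes summed to 5689 CPM, against 145 to 254 CPM in the other treated tumors and 184 to 483 CPM with vehicle. Endothelial markers were read in every tumor. The 12 genes of that list summed to 502 to 1033 CPM in R-propranolol-treated tumors and 482 to 619 CPM in vehicle-treated tumors.

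Summed over the 48 members, the level was 507, 484, 332, 308 and 1147 CPM in R-propranolol-treated tumors 1 to 5 and 395, 423, 363 and 304 CPM in vehicle-treated tumors 1 to 4. The groups overlapped, and the highest sum was that of R-propranolol replicate 5. Over the 9 tumors most of these reads belonged to Hp, Trf, Apob and Afp, which were abundant in both groups. In R-propranolol replicate 5, however, Apob had 18 and Afp 57 of the 17242 reads, while Cyp2e1 had 3653 and Pck1 1778. The log2 ratio of the group means was 0.58, and it was 0.13 without R-propranolol replicate 5. In a bulk tumor, more cells of a type and more RNA in each cell cannot be told apart.

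A different picture came from 9 genes of the list, named here as hepatocyte markers, Alb, Apoa1, Apoa2, Ttr, Serpina1a, Fgb, Ahsg, Cps1 and Hnf4a. Other liver products of the list, such as Hp, Apob and Afp, did not share it. Their summed level was 95.2, 42.0, 47.0, 21.0 and 41.0 CPM in R-propranolol-treated tumors and 2.41, 36.0, 1.23 and 1.99 CPM in vehicle-treated tumors. The 3 vehicle replicates 1, 3 and 4 thus lay far below all other tumors, while vehicle replicate 2 lay within the range of the treated tumors. The sum depended largely on Alb. That gene had 1553 of the 2699 counts in R-propranolol replicate 1, 589 of 935 in vehicle replicate 2 and 23 of 56 in vehicle replicate 1. Reads of the 9 genes were at most 0.01% of the counts in any tumor.

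**Figure D1:**
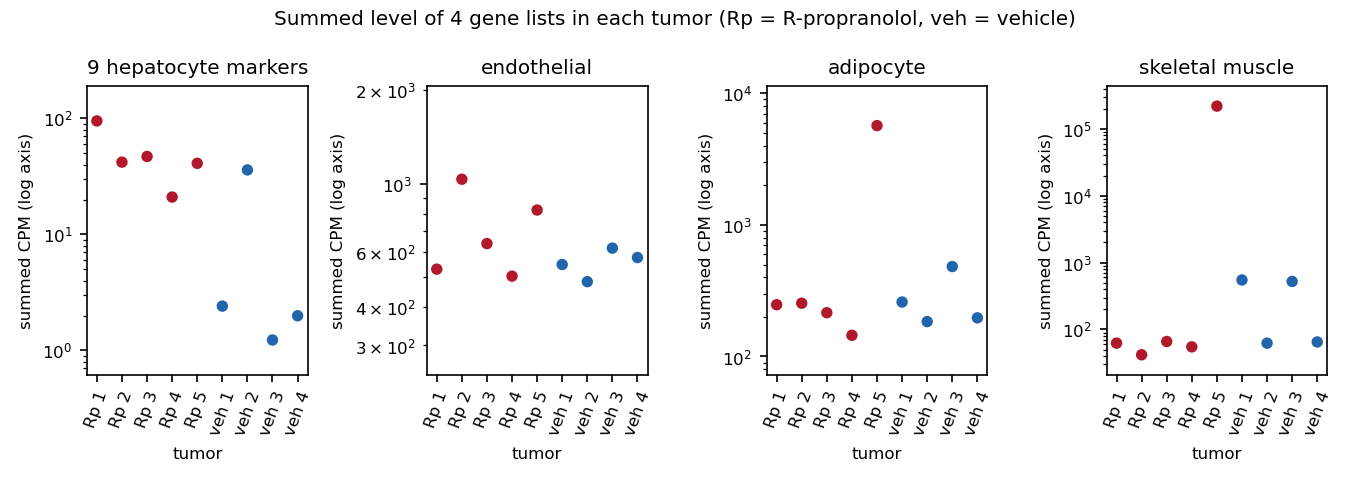
Summed level of 4 gene lists in each tumor, in CPM on a log axis, with R-propranolol (Rp, red) left of vehicle (veh, blue) and 1 point per tumor. The 9 hepatocyte markers were between 21.0 and 95.2 CPM in R-propranolol-treated tumors and at 36.0 CPM in vehicle replicate 2, but at 1.23 to 2.41 CPM in the other vehicle-treated tumors, whereas the adipocyte and skeletal muscle lists were highest in R-propranolol replicate 5.

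Among the plasma carriers, Alb (albumin, chr5:90460897-90476602) had 54.8, 26.5, 29.5, 12.9 and 20.7 CPM in R-propranolol-treated tumors, against 0.99, 22.7, 0.595 and 1.42 CPM in vehicle-treated tumors. The lowest treated tumor lay far above vehicle replicates 1, 3 and 4 and below vehicle replicate 2, so the groups overlapped through 1 tumor. Ahsg, the fetuin that keeps calcium phosphate in solution, had 20, 7.24, 7.65, 3.40 and 9.38 CPM with R-propranolol and 0.172, 6.40, 0.0794 and 0.19 CPM with vehicle. Ttr (transthyretin, the carrier of thyroxine and of retinol-binding protein) had 4.66, 1.80, 2.19, 0.738 and 2.06 CPM with R-propranolol and 0.043, 1.77, 0.0397 and 0.0475 CPM with vehicle, where the level outside replicate 2 stands for 1 read in each tumor. All 3 genes were highest in R-propranolol replicate 1 and, among the vehicle-treated tumors, in replicate 2. Their log2 fold changes (R-propranolol over vehicle, with the standard error, SE) were 2.17 for Alb (SE 1.09), 2.47 for Ahsg (1.26) and 2.24 for Ttr (1.15). Without vehicle replicate 2 the values were 4.84 for Alb, 5.98 for Ahsg and 5.56 for Ttr. Without R-propranolol replicate 1 they were 1.80, 2.01 and 1.81 in that order, and without vehicle replicate 3 they were 1.78, 2.07 and 1.86.

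Ambp, the precursor of alpha-1-microglobulin and bikunin, had 2.54, 1.52, 1.15, 0.328 and 1.6 CPM in R-propranolol-treated tumors and 0.215, 0.617, 0.397 and 0.0475 CPM in vehicle-treated tumors, a log2 fold change of 2.13 (SE 0.72). Hpx (hemopexin, which binds free heme) had 3.46, 3.04, 2.91, 1.72 and 1.73 CPM with R-propranolol and 1.55, 1.58, 1.35 and 1.61 CPM with vehicle. Hpx was the single fitted member with every R-propranolol-treated tumor above every vehicle-treated tumor, although its log2 fold change was only 0.76 (0.28) and the gap between the nearest tumors, 1.72 and 1.61 CPM, was small. The same separation was found for 0.633% of all 13901 genes tested. Since the list was chosen on this contrast, nothing is read from that share. It was also seen for G6pc and Hnf4a, which had too few reads to be fitted.

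Rbp4, Trf and Vtn were highest in R-propranolol replicate 5 and not in replicate 1. Rbp4, the retinol-binding protein of plasma, which adipocytes also make, had 2.89, 16.0, 0.862, 0.738 and 57.8 CPM in R-propranolol-treated tumors and 1.16, 1.46, 4.52 and 0.142 CPM in vehicle-treated tumors. Trf (transferrin, the iron carrier) had 55.6, 137, 22, 32.2 and 332 CPM with R-propranolol and 58.2, 35.8, 69.1 and 17.1 CPM with vehicle. Vtn, the adhesive glycoprotein vitronectin, had 2.08, 3.52, 0.826, 0.287 and 27.1 CPM with R-propranolol and 1.16, 0.732, 1.59 and 0.285 CPM with vehicle. In each of these 3 genes replicates 5 and 2 were the highest treated tumors, vehicle replicate 3 was the highest vehicle-treated tumor, and at least 2 treated tumors lay within the range of the vehicle group. Their log2 fold changes were 3.09 (SE 1.49), 1.36 (0.82) and 2.83 (1.29) in that order, and without R-propranolol replicate 5 they were 1.47, 0.44 and 0.82. Of the 3320 exon bases of Trf, 2108 are shared with another gene model on the same strand, Gm20425, so its count depends on how such reads were assigned.

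Hp and Afp were read throughout. Hp (haptoglobin, which binds free hemoglobin) had 155, 218, 83.0, 110 and 279 CPM in R-propranolol-treated tumors and 155, 125, 135 and 96.0 CPM in vehicle-treated tumors, with a log2 fold change of 0.40 (SE 0.34). Afp, alpha-fetoprotein, the albumin-like carrier of the fetus, had 34.9, 19.3, 21.3, 26.0 and 3.79 CPM with R-propranolol and 29.8, 21.9, 24.6 and 23.7 CPM with vehicle. Afp differed little among 8 of the 9 tumors and was low in R-propranolol replicate 5. The groups overlapped for both genes, and the log2 fold change of Afp was -0.25 (0.49), and 0.02 without that tumor.

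**Figure D2:**
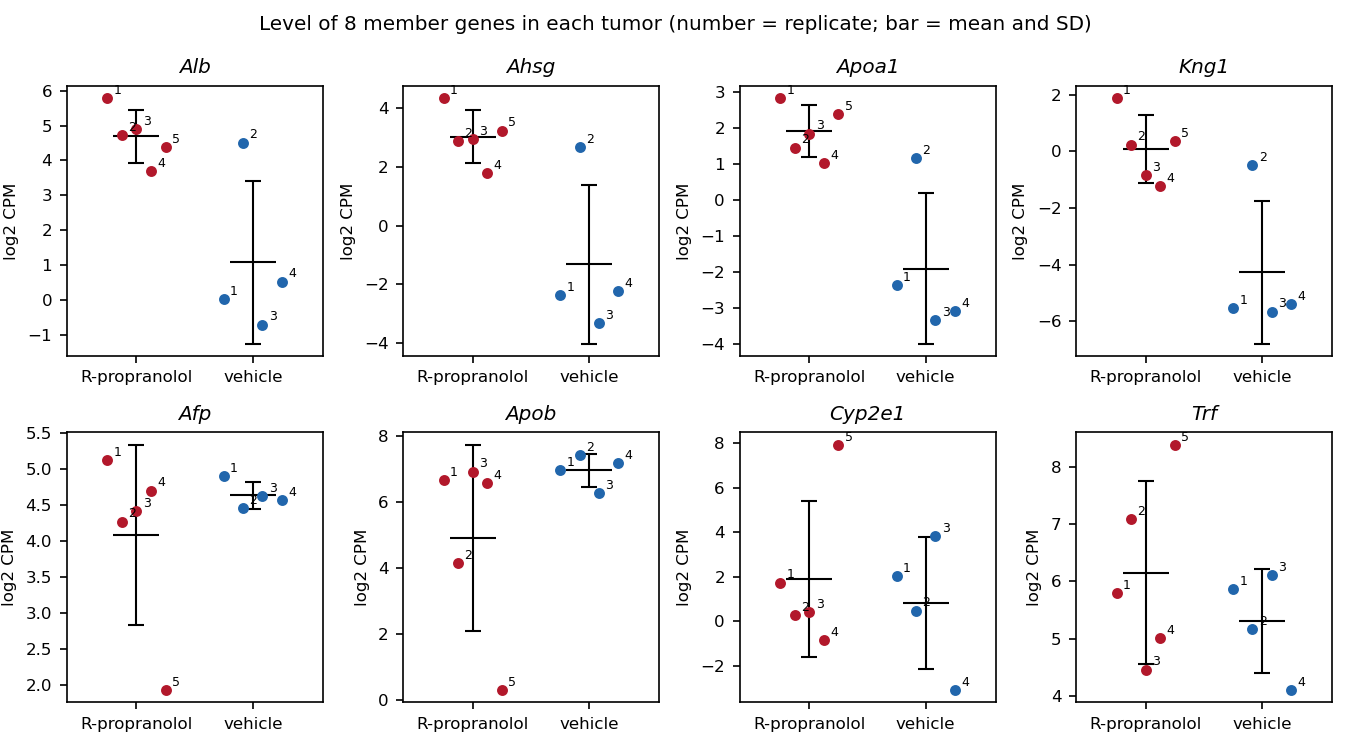
Level of 8 members in each tumor, in log2 CPM, with R-propranolol (red) left of vehicle (blue); numbers are replicates and bars give the mean and SD of each group (n = 5 and n = 4). For Alb, Ahsg, Apoa1 and Kng1 vehicle replicate 2 lay with the treated tumors, Afp and Apob were low in R-propranolol replicate 5, and Cyp2e1 and Trf were highest in it.

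Of the 8 apolipoproteins, Apoa1 (chr9:46228580-46230466), the main protein of high-density lipoprotein, showed the pattern of Alb. It had 7.09, 2.72, 3.59, 2.01 and 5.25 CPM in R-propranolol-treated tumors and 0.172, 2.24, 0.0794 and 0.0949 CPM in vehicle-treated tumors. Apoa2, the second protein of the same particle, had 2.51, 1.72, 1.40, 0.697 and 1.93 CPM with R-propranolol and 0.646, 1.27, 0.437 and 0.142 CPM with vehicle. Apoh, a phospholipid-binding glycoprotein, had 1.66, 0.64, 0.611, 0.246 and 1.06 CPM with R-propranolol and 0.0861, 0.462, 0.119 and 0.0475 CPM with vehicle. For each of the 3, 4 of the 5 treated tumors were above all vehicle-treated tumors and R-propranolol replicate 4 was below vehicle replicate 2. Their log2 fold changes were 2.66 (SE 1.02), 1.39 (0.59) and 2.18 (0.75), and without vehicle replicate 2 they were 5.1, 1.99 and 3.23. Without R-propranolol replicate 1 they were 2.37, 1.19 and 1.77.

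Apob and Apoc1 did not follow Alb. Apob (chr12:7977648-8016835), the scaffold of very-low-density lipoprotein, had 101, 17.6, 121, 94.4 and 1.2 CPM in R-propranolol-treated tumors, against 126, 173, 76.5 and 144 CPM in vehicle-treated tumors. No treated tumor exceeded vehicle replicate 2, and R-propranolol replicates 2 and 5 were far below the other 7 tumors. Its mean was 67.1 ± 53.9 CPM with R-propranolol (SD, n = 5) and 129.8 ± 40.5 CPM with vehicle (SD, n = 4), and its log2 fold change was -0.95 (SE 0.92). Apoc1, a small apolipoprotein that macrophages also make, had 10.2, 8.61, 13.9, 12.4 and 15 CPM with R-propranolol and 7.66, 6.74, 12.4 and 13.5 CPM with vehicle, a log2 fold change of 0.26 (0.27), and its groups overlapped. The remaining 3 were close to the limit of counting, with 31 reads of Apoa5 with R-propranolol and 7 with vehicle, 9 and 3 reads of Apoc3, and 7 and 5 reads of Apoc4. Apoc3 and Apoa5 lie beside Apoa1 on chromosome 9, and in R-propranolol replicate 1, with 201 counts of Apoa1, Apoc3 had 3 and Apoa5 had 21.

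Protease inhibitors were read at a few CPM or less. The mouse has several nearly identical copies of the gene of alpha-1-antitrypsin, the inhibitor of neutrophil elastase, and reads may be divided among them in ways that the counts do not show. Summed over Serpina1a to Serpina1e the level was 9.28, 4.08, 3.38, 2.05 and 8.05 CPM in R-propranolol-treated tumors and 0.775, 3.04, 0.397 and 0.665 CPM in vehicle-treated tumors. R-propranolol replicate 4 lay below vehicle replicate 2, and the other 3 vehicle-treated tumors were below all treated tumors. Serpina1b had most of these reads, with 4.16, 1.84, 1.44, 1.15 and 6.45 CPM with R-propranolol and 0.473, 1.5, 0.119 and 0.427 CPM with vehicle, and Serpina1a had 1.66, 0.72, 0.575, 0.246 and 0.598 CPM with R-propranolol and 0.129, 0.462, 0 and 0.0475 CPM with vehicle. Their log2 fold changes were 2.23 (SE 0.79) and 2.20 (0.92), and without vehicle replicate 2 they were 3.12 and 3.6. Without R-propranolol replicate 1 they were 2.09 and 1.68. Serpina1c and Serpina1d had 88 and 78 reads in all and log2 fold changes of 1.58 and 1.55, and Serpina1e, with 82 reads, 73 of them with R-propranolol and 9 with vehicle, was not fitted.

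Serpinc1, which encodes antithrombin, had 1.76, 1.0, 1.54, 0.902 and 0.997 CPM in R-propranolol-treated tumors and 0.689, 1.08, 0.556 and 0.475 CPM in vehicle-treated tumors, with a log2 fold change of 0.82 (SE 0.35). Of its 8546 exon bases 2942 are shared with Zbtb37 on the other strand, which had 57 to 284 counts with R-propranolol and 167 to 297 with vehicle, and the strand setting of the count was not stated. Itih3 and Itih4 encode heavy chains of the inter-alpha-trypsin inhibitors, which bind hyaluronan. Itih3 had 2.54, 0.52, 0.611, 0.328 and 1.53 CPM with R-propranolol and 0.344, 0.501, 0.119 and 0.237 CPM with vehicle, and Itih4 had 2.86, 0.72, 1.58, 0.943 and 5.25 CPM with R-propranolol and 0.559, 2.16, 0.635 and 0.949 CPM with vehicle. Both were highest in R-propranolol replicates 1 and 5, and their groups overlapped. Their log2 fold changes were 1.86 (0.70) and 1.06 (0.68), and that of Itih4 was 0.50 without R-propranolol replicate 5 and 1.65 without vehicle replicate 2. Serpina3k, an abundant serpin of mouse liver, had only 9 reads with R-propranolol and 10 with vehicle.

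The factors of clotting, fibrinolysis and kinin release showed the pattern of Alb. Summed over the 8 genes, the level was 15.7, 5.40, 6.04, 2.66 and 6.32 CPM in R-propranolol-treated tumors and 0.43, 4.01, 0.0397 and 0.237 CPM in vehicle-treated tumors. Vehicle replicate 2 was above R-propranolol replicate 4, and vehicle replicate 3 had 1 read over the 8 genes. The 3 chains of fibrinogen, which are encoded side by side on chromosome 3 and assembled in 1 protein, had a similar course. Fga had 3.35, 1.08, 1.37, 0.533 and 1.73 CPM with R-propranolol and 0.172, 0.809, 0.0397 and 0 CPM with vehicle. Fgb had 2.33, 0.72, 0.862, 0.369 and 0.598 CPM with R-propranolol and 0.172, 0.732, 0 and 0.0475 CPM with vehicle. Fgg had 2.29, 0.72, 0.754, 0.533 and 0.997 CPM with R-propranolol and 0, 0.732, 0 and 0 CPM with vehicle. Fgg was thus read in only 1 of 4 vehicle-treated tumors and in all 5 treated tumors. The log2 fold changes were 2.61 (SE 1.02), 2.0 (1.0) and 2.46 (1.23). Without vehicle replicate 2 those of Fga and Fgb were 4.4 and 3.66, and no vehicle read of Fgg was left. Without R-propranolol replicate 1 the 3 values were 2.15, 1.38 and 1.96.

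F2, the gene of prothrombin, had 35, 15, 38, 7 and 14 counts in R-propranolol-treated tumors and 1, 11, 0 and 2 counts in vehicle-treated tumors. Plg (plasminogen, the precursor of the protease that dissolves fibrin) had 64, 21, 26, 10 and 9 counts with R-propranolol and 1, 12, 0 and 1 counts with vehicle. Kng1, the kininogen from which bradykinin is cleaved, had 104, 29, 15, 10 and 19 counts with R-propranolol and 0, 18, 0 and 0 counts with vehicle. In all 3 the groups overlapped only through vehicle replicate 2, and the log2 fold changes were 2.59 (SE 0.90), 2.80 (0.98) and 2.95 (1.33). Without that tumor those of F2 and Plg were 4.17 and 4.88, and no vehicle read of Kng1 was left. Without R-propranolol replicate 1 the values of F2, Plg and Kng1 were 2.4, 2.3 and 2.2. Plg shares 420 exon bases with Slc22a3 on the other strand. F12 had 30 reads with R-propranolol and 4 with vehicle, all 4 in replicate 2, and F9 had 5 and 1.

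The enzymes divided between the courses already seen. Cps1, the carbamoyl-phosphate synthetase that opens the urea cycle, had 46, 13, 28, 10 and 5 counts in R-propranolol-treated tumors and 2, 10, 0 and 0 counts in vehicle-treated tumors. Its log2 fold change was 2.65 (SE 1.02). The value was 4.54 without vehicle replicate 2 and 2.24 without vehicle replicate 3. Cyp2e1 (chr7:140763739-140774987), a cytochrome P450 that oxidizes ethanol, had 3.32, 1.2, 1.33, 0.533 and 243 CPM with R-propranolol and 4.13, 1.39, 14.3 and 0.0949 CPM with vehicle. Pck1, the phosphoenolpyruvate carboxykinase of gluconeogenesis, had 3.49, 2.08, 0.683, 0.41 and 118 CPM with R-propranolol and 3.18, 4.35, 13.3 and 0.142 CPM with vehicle. Cyp2e1 and Pck1 were each highest in R-propranolol replicate 5 and next in vehicle replicate 3, and R-propranolol replicates 1 to 4 lay within the range of the vehicle-treated tumors. Their log2 fold changes were 3.32 (2.11) and 2.25 (1.81), and without R-propranolol replicate 5 they were -1.64 and -1.65. Adipoq, which is specific to adipocytes, had 171, 101, 7, 19 and 6055 counts with R-propranolol and 234, 63, 590 and 8 counts with vehicle. It was thus highest in the same tumor of each group. The part of adipose and muscle tissue in the reads of Cyp2e1, Pck1, Rbp4, Trf and Vtn was not tested.

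Uox, which oxidizes uric acid in mice, had 3.71, 2.00, 1.47, 1.6 and 1.06 CPM in R-propranolol-treated tumors and 1.55, 4.01, 6.19 and 2.94 CPM in vehicle-treated tumors, a log2 fold change of -0.89 (SE 0.47). Its groups overlapped, and it is 1 of the 3 fitted members, with Afp and Apob, whose mean was lower with R-propranolol. The other 6 enzymes had 45 reads or fewer. Cyp3a11 and Cyp2c29, cytochromes that oxidize drugs, had 40 and 7 reads with R-propranolol and 5 and 0 with vehicle. Tat and Hpd, which break down tyrosine, had 23 and 36 reads with R-propranolol and 2 and 8 with vehicle, and Tdo2, which opens the breakdown of tryptophan, had 20 and 13. G6pc, the glucose-6-phosphatase that releases glucose, had 14, 4, 1, 3 and 2 reads with R-propranolol and none with vehicle.

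Hnf4a, a nuclear receptor needed for the identity of hepatocytes and the only transcription factor of the list, had 15, 3, 4, 5 and 2 counts in R-propranolol-treated tumors and 0, 2, 0 and 0 counts in vehicle-treated tumors. In CPM every treated tumor was above every vehicle-treated tumor, with 0.12 CPM in the lowest treated tumor and 0.0771 CPM in the highest vehicle-treated tumor, a difference between 3 and 2 reads. Its highest tumor in each group was that of Alb. The major urinary proteins, pheromone carriers that male mouse liver makes in quantity, were all but absent, with 2 reads of Mup3 with R-propranolol and 1 with vehicle, and 0 reads of Mup20 in the 9 tumors. Members of multigene families such as these can lose reads that match several copies.

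**Figure D3:**
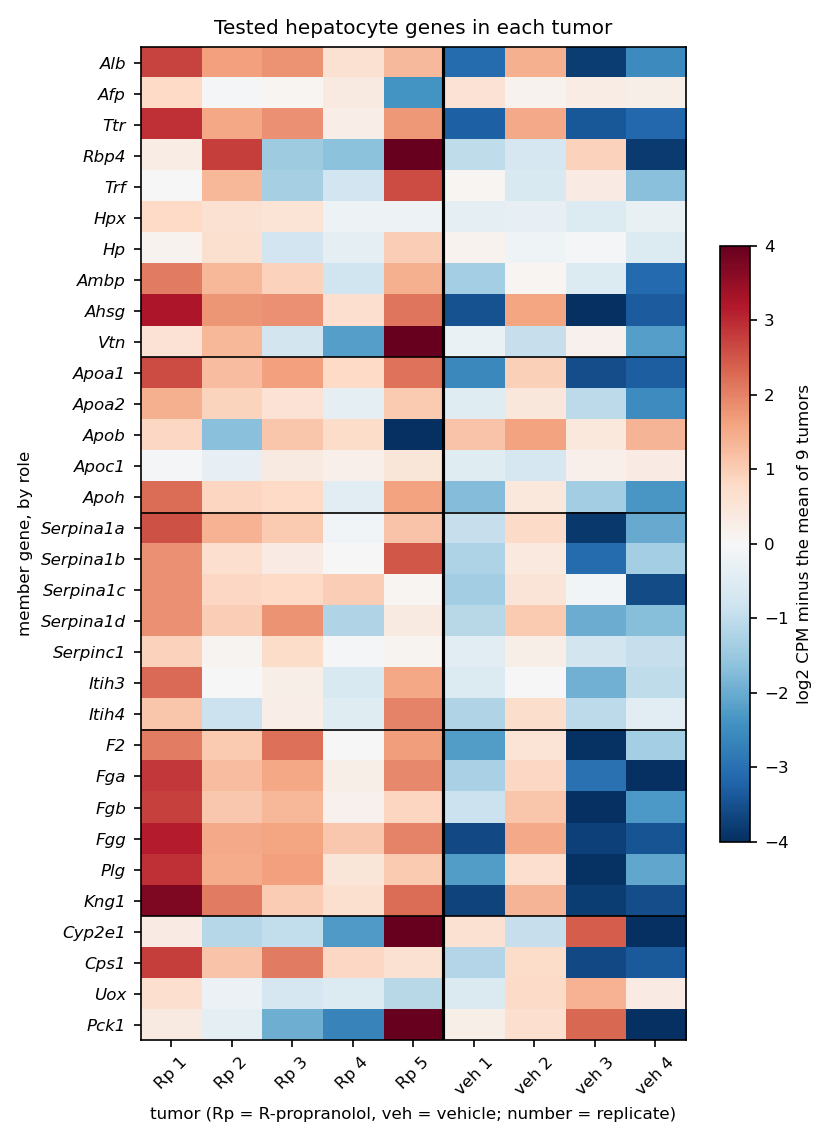
Level of the 32 fitted members in the 9 tumors as log2 CPM minus the mean of the gene over the tumors, with R-propranolol columns left of the vehicle columns and lines between roles. Most secreted proteins were high in R-propranolol replicate 1 and vehicle replicate 2 and low in vehicle replicates 1, 3 and 4, while Rbp4, Vtn, Cyp2e1 and Pck1 were highest in R-propranolol replicate 5.

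Over the 32 fitted members the mean was higher in R-propranolol-treated tumors for 29 and lower for 3. Of all genes tested 54.3% had a log2 fold change above 0, and nothing is read from the comparison since the list was chosen on it. The median log2 fold change was 2.17 over the members and 0.03 over all genes, and it was 1 or more in 25 members. An unadjusted p under 0.05 in the quasi-likelihood test of edgeR was found for 13 members that were higher (2.01% of all genes) and for 0 that were lower (0.288% of all genes). After adjustment by the method of Benjamini and Hochberg, 0 members and 0 genes passed 0.05 in edgeR, and the smallest adjusted p of any gene was 0.876. DESeq2 gave 0 members after adjustment and 20 before, and called 2 genes outside the list, Dusp1 and Egr1, while limma-voom gave 0 genes after adjustment and 19 members before. Without vehicle replicate 2 the smallest adjusted p of a member was 0.268 in edgeR, with 19 members higher at an unadjusted p under 0.05. The shares of all genes under that threshold in DESeq2, in limma-voom and without that tumor are not reported here. Nothing is therefore read from these larger counts of members. The counts over fitted members also depend on the filter for reads. Some members, such as Fgg and Kng1, passed it through the treated tumors, where they were high. With no filter 43 of 47 members were higher with R-propranolol, and the median log2 fold change was 2.15.

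**Figure D4:**
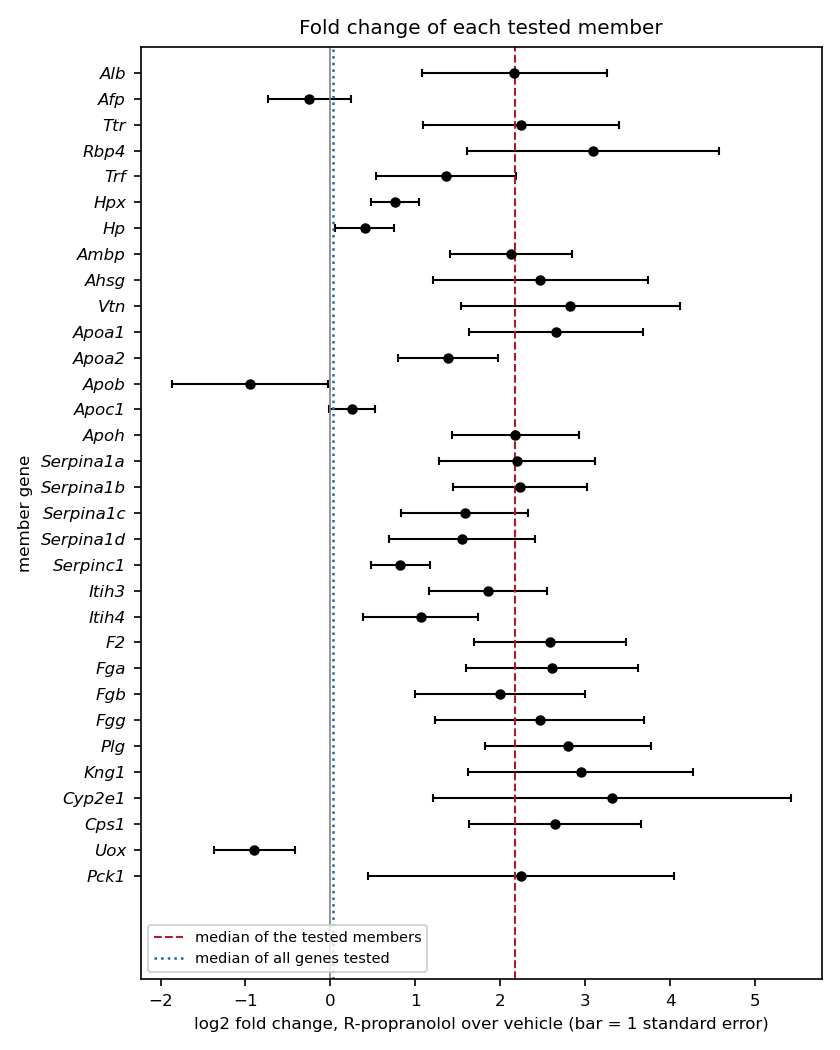
Log2 fold change of each fitted member, R-propranolol over vehicle, with 1 standard error. The values ran from -0.95 for Apob to 3.32 for Cyp2e1, with a median of 2.17 (dashed) beside 0.03 for all genes tested (dotted), and Hpx, Hp, Apoc1 and Serpinc1 had the shortest bars.

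The course within each group is another measure than the difference between the treatments, though it too was known for some members when the list was drawn up. Of 34 members with at least 10 reads over the vehicle-treated tumors, 22 had their highest vehicle level in replicate 2, against 17.1% of all genes with as many reads. Replicate 3 was highest for 8 of them, Rbp4, Trf, Vtn, Serpina3k, Cyp2e1, Tdo2, Uox and Pck1. Of 41 members with at least 10 reads over the R-propranolol-treated tumors, 28 were highest in replicate 1, against 9.52% of all genes, and 10 in replicate 5, against 40.7% of all genes. These 10 were Rbp4, Trf, Hp, Vtn, Apoc1, Serpina1b, Itih4, Cyp2e1, Tdo2 and Pck1, and the other 3, Apob, F2 and Cyp3a11, were highest in replicate 3. The shares depend on the scaling. With library size alone, R-propranolol replicate 1 was highest for 28 members, against 17.0% of all genes, and replicate 5 for 8, against 28.1%. Vehicle replicate 2 was then highest for 22 members, against 13.5% of all genes. Members whose levels vary together are not independent of each other, and they share the depth of their library.

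The proportion of each member to Alb describes the same values in another way. It needs reads of Alb, so it is given first for the 6 tumors with at least 312 Alb counts, which were all 5 R-propranolol-treated tumors and vehicle replicate 2. Serpina1a had 1.90 to 3.03 reads for every 100 of Alb, Fgb 2.72 to 4.25, Plg 2.04 to 4.12, Ahsg 25.9 to 45.2 and Ttr 5.71 to 9.94. Over these 5 genes and Apoa1, F2, Fga, Fgg, Kng1 and Cps1, the 11 members nearest to Alb by the measure below, the highest proportion was 1.56 to 3.67 times the lowest. Since these 11 are named for their likeness to Alb in the same tumors, this range is a description and no further result. Other members had a range of similar width, with 2.11 for Hpx, 2.17 for Serpinc1 and 3.54 for Uox, or a wider one, with 4.78 for Hp, 5.17 for Apoc1, 6.39 for Serpina1b, 11 for Afp and 21.5 for Trf. It was widest for Cyp2e1, with 4.13 to 1171 reads for every 100 of Alb, and Pck1, with 2.31 to 570. In the 4 treated tumors other than replicate 5 and in vehicle replicate 2, however, Cyp2e1 had 4.13 to 6.11 reads for every 100 of Alb. In vehicle replicates 1, 3 and 4, which had 15 to 30 counts of Alb, Ahsg had 13.3 to 17.4 reads for every 100 of Alb, from 2 to 4 reads. Cyp2e1 had 417 in vehicle replicate 1, 2407 in vehicle replicate 3 and 6.67, from 2 reads, in vehicle replicate 4.

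**Figure D5:**
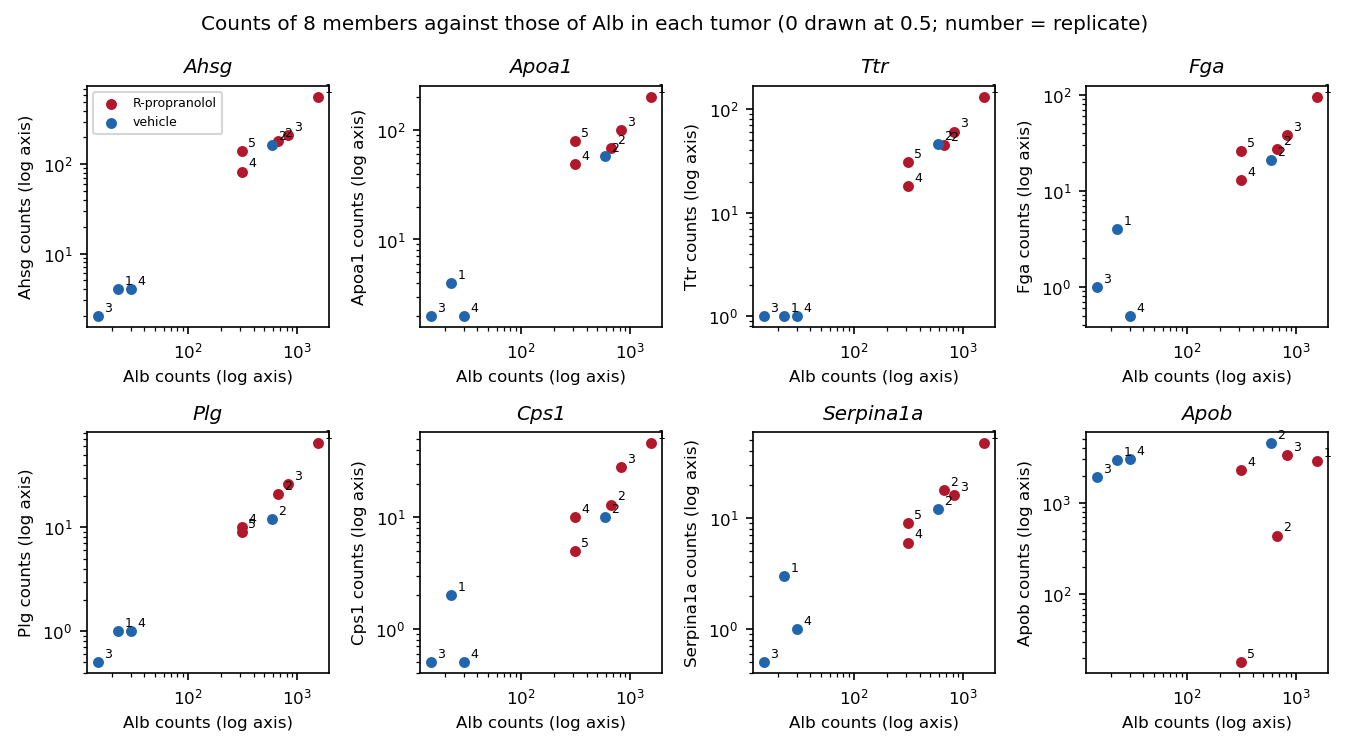
Counts of 8 members against those of Alb in each tumor, on log axes, with R-propranolol in red, vehicle in blue and a count of 0 drawn at 0.5. For 7 members the points rose together with Alb, with vehicle replicate 2 among the treated tumors, whereas Apob had 1928 to 4487 counts in vehicle-treated tumors at low and high Alb alike and 18 in R-propranolol replicate 5.

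Likeness to Alb was also measured over the 14145 genes with at least 100 reads, as the root mean square difference of centered log2 CPM over the 9 tumors, where 0 is the same course. The 15 nearest genes held 11 members and 3 further hepatocyte genes, and the nearest members were Ttr (0.32), Plg (0.43), Apoa1 and Fgg (0.48 each). The median was 1.48 over 29 members and 2.34 over all genes. The course over the 9 tumors includes the difference between the treatments, on which the members were selected, so nothing is read from these values. The lists of further hepatocyte genes were also drawn up with earlier results of these data known. Among genes outside the list the nearest were Gc (0.47), the vitamin D-binding protein of plasma, Bhmt (0.53), which methylates homocysteine with betaine, Mat1a (0.87), which makes S-adenosylmethionine in liver, and Ces1c (0.96), a secreted carboxylesterase. Further genes among the 15 nearest were Igfbp2, Hist2h2bb, Tnfsf8, Arsj, Pzp, Sim2, Fos, Serpind1 and C330013E15Rik, at 1.32 to 1.86. Of the 15, 7 belong to lists of hepatocyte genes. With a minimum of 300 reads, Pzp (1.78) was the only such gene among the 15 nearest, and the genes that then ranked next to it, such as Fos (1.83), were less like Alb than the leading genes above.

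Gc had 64, 31, 32, 17 and 10 counts in R-propranolol-treated tumors and 1, 28, 1 and 2 counts in vehicle-treated tumors, and Bhmt had 35, 22, 25, 8 and 8 counts with R-propranolol and 1, 11, 0 and 0 with vehicle. Both were highest in the tumors that were highest in Alb, and for both the treatments overlapped only through vehicle replicate 2. A wider list held 117 other hepatocyte genes. Reads were counted for 111 of them and 41 were fitted, of which 29 were higher and 12 lower with R-propranolol. Unadjusted p was under 0.05 for 4, all higher, among them Bhmt and Mat1a, against 2.01% of all genes, and for 0 that were lower, while 0 passed after adjustment in edgeR. This wider list was also drawn up with earlier results of these data known, so nothing is read from the comparison. The median log2 fold change of the 41 was 0.74, and 0.18 without R-propranolol replicate 5.

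The genes with the most reads among these 41 did not share the course of Alb. Orm1, an acute-phase carrier, had 397, 101, 432, 265 and 337 counts in R-propranolol-treated tumors and 188, 327, 379 and 426 counts in vehicle-treated tumors, and the log2 fold changes of F10, Lcat and Itih2 were 0.32, 0.02 and -0.17. Arg1, the arginase of the urea cycle, which macrophages also express, had 96, 11854, 114, 66 and 252 counts with R-propranolol and 62, 72, 522 and 47 counts with vehicle, so that 1 treated tumor held most of its reads. Hal, Sdsl and Khk had log2 fold changes of 1.29, -0.31 and 0.45. Cebpa, a transcription factor of hepatocytes and adipocytes, had 400, 1226, 127, 259 and 4974 counts with R-propranolol and 474, 352, 575 and 111 with vehicle, a log2 fold change of 2.40 (SE 1.25). Cebpa was highest in R-propranolol replicate 5 and vehicle replicate 3, as Cyp2e1 and Pck1 were. Asgr1, a subunit of the asialoglycoprotein receptor, had 287, 152, 373, 175 and 6 counts with R-propranolol and 191, 269, 232 and 313 with vehicle, and like Afp and Apob it was lowest in R-propranolol replicate 5. Onecut2 and Creb3l3 had log2 fold changes of -0.80 and 1.93, and Cyp27a1, Adh1, Hao1 and Fmo5 had 1.5, 2.85, -0.58 and 2.09.

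Markers of other liver cells were checked beside the hepatocyte genes. Clec4f, which marks Kupffer cells, had 0 to 2 counts in R-propranolol-treated tumors and 0 to 1 in vehicle-treated tumors. Lrat, which marks stellate cells, had 0 to 2 and 0 to 4 counts, and Cftr of bile ducts 0 to 5 and 0 to 1. Among the tissues that share some hepatocyte genes, Fabp2 of the intestine had 0 to 2 counts with R-propranolol and 0 to 1 with vehicle, and Kap and Umod of the kidney had 0 counts throughout. These markers were at or near 0 in both groups. Others on the same lists were read, some in quantity, with 2624 to 15052 counts of Cd163 (macrophages) in R-propranolol-treated tumors and 2157 to 6138 in vehicle-treated tumors, 1375 to 6917 and 1232 to 4311 of Fcgr2b (macrophages and liver endothelium), 79 to 433 and 185 to 500 of Sox9 (bile ducts and other tissues), and 47 to 130 and 79 to 170 of Cubn (kidney and intestine). Lower levels were 16 to 52 counts with R-propranolol and 11 to 35 with vehicle of Timd4 (Kupffer cells and other macrophages), 4 to 56 and 11 to 25 of Oit3 (liver endothelium), 0 to 76 and 1 to 88 of Krt19 (bile ducts and other epithelia) and 2 to 43 and 20 to 43 of Vil1 (intestine and kidney). Of the stellate list, Hgf had 15 to 126 counts with R-propranolol and 12 to 52 with vehicle. Reln of that list had 0 to 47 and 3 to 6 counts, and Colec11 had 1 to 26 and 1 to 5. For each of these genes the groups overlapped. The part of other cells in the reads of the members was not tested.

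Per kilobase of exon, which allows levels of different genes to be compared, the highest mean was that of Hp, at 105 CPM per kilobase in R-propranolol-treated tumors and 79.6 in vehicle-treated tumors. It was followed by Trf (34.9 and 13.6 CPM per kilobase), Cyp2e1 (23.1 and 2.31), Apoc1 (16.2 and 13.5) and Alb (12.3 and 2.74). Without R-propranolol replicate 5 the means of the treated tumors were 88.1 CPM per kilobase for Hp, 18.6 for Trf, 15.2 for Apoc1 and 13.2 for Alb, and Cyp2e1 was at 0.739, below its level with vehicle. By this measure the group means of Afp, at 6.25 and 7.43 CPM per kilobase, and of Apob, at 4.82 and 9.31, were above that of Alb with vehicle and below it with R-propranolol. The order of the means did not hold in every tumor. In vehicle replicate 2 Alb, with 22.7 CPM over 2342 exon bases, was above Afp, with 21.9 CPM over 3368. In R-propranolol replicate 4 Alb, with 12.9 CPM, was below Afp, with 26.0 CPM, also per kilobase. Apoc3 (0.0815 and 0.031 CPM per kilobase) and Mup20 (0 in both) lay near the floor. In liver, albumin is the most abundant of these products, and the source of the reads behind the order seen here was not tested. The spread between tumors exceeded the gaps between Trf, Cyp2e1, Apoc1 and Alb in R-propranolol-treated tumors.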

How the data were processed

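RNA was measured in 9 bEnd.3 tumors, 5 from mice treated with R-propranolol and 4 with vehicle, with 1 library per tumor. The authors prepared libraries with the NEBNext Ultra kit and sequenced 150-base read pairs. The submitters' processing notes name STAR, HTSeq and edgeR with build mm10, but no version, annotation or strand setting was found in the sources used. The deposited values are raw counts per gene symbol, and reads outside genes (13.44% to 15.37% of those listed), ambiguous reads and reads with several places were left out of library sizes. Reads with several places were 7.86% in R-propranolol replicate 5 and 3.46% to 3.99% elsewhere. The members and gene lists were chosen with earlier results of these data known.

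Genes were kept by filterByExpr (minimum count 10, minimum total 15), which left 13901, and fitted with the quasi-likelihood test of edgeR 4.0.16 in R 4.3.3 on TMM-scaled counts, with Benjamini-Hochberg adjustment over all genes tested. Log2 CPM used a prior count of 0.5. The fit was also run on simulated data in which genes varied independently and no tumor stood apart. That run does not cover R-propranolol replicate 5 or genes that varied together with Alb, and nothing is read from it. Alternatives were DESeq2 1.42.0, its size factors, limma 3.58.1 (voom), library size alone, TMM without muscle genes and members, other filters, summed vehicle replicates 1 and 2, a replicate block and leaving out each tumor. No label says that tumors of 1 group came from separate grafts, so p-values measure the spread between these tumors.

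Members with at least 100 reads are given per tumor and the others by reads. From each list of other genes up to 4 fitted genes with the most reads are named, and the genes among the 15 nearest to Alb, beside markers of other cells. Some genes that meet this rule are not reported here. Places are from GENCODE M21 (GRCm38) and start regions from RefSeq (GRCm38.p6).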

Additional observations from a re-analysis of the deposited data

Results flagged for a closer look

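In 64 groups of tumors examined, of which chance would set about 1 in 20 apart, 4 had a tumor far from the others by Dixon's criterion on log2 CPM. Afp was at 3.79 CPM in R-propranolol replicate 5, against 19.3 to 34.9 CPM in the other R-propranolol-treated tumors. In vehicle replicate 2, Ttr was at 1.77 CPM, against 0.0397 to 0.0475 CPM in the other vehicle-treated tumors. In the same tumor Fgg was at 0.732 CPM and Kng1 at 0.694 CPM, and both had 0 reads in the other 3 vehicle-treated tumors. The 3 genes vary together, so these are not separate events. On CPM without the log, a scale added after seeing the data, 15 groups of members had such a tumor, 7 in vehicle replicate 2, Alb, Ahsg and Apoa1 among them, 4 in R-propranolol replicate 1 and 4 in R-propranolol replicate 5, and Afp was not among them.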

How the results depend on the processing

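The median log2 fold change of the fitted members was 2.17 and lay between 1.73 and 2.99 when each tumor was left out, and the log2 ratio of the summed level, 0.58, between 0.13 and 0.78. The number of members with a higher mean was 29, and 26 to 29 without single tumors, but 17 with a filter of 1 CPM in 4 tumors, which fitted only 20. The number higher at an unadjusted p under 0.05 was 13, and 6 with that filter, 20 with DESeq2, 3 to 19 without single tumors (3 without vehicle replicate 1, 4 without vehicle replicate 4, 5 without vehicle replicate 3 or R-propranolol replicate 1), and 21 without vehicle replicate 2 and R-propranolol replicate 5, a setting chosen after seeing the data. For other hepatocyte genes the median of 0.74 was 0.33 with that filter, 0.18 to 0.91 without single tumors, 0.15 without both tumors named and 0.11 with the replicate block. The 29 higher genes of 41 fitted became 88 of 111 with no filter and 18 of 27 with the stricter one. The 22 of 34 members highest in vehicle replicate 2 became 13 of 23 with a minimum of 20 reads in the group, against 17.1% of all genes in both cases. Shares of all genes that were higher, or under an unadjusted p of 0.05, are not reported here for the alternatives. Nothing is therefore read from the changes in those numbers. The cause of these differences beyond the number of genes or tumors fitted was not tested.

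Of 584 values of members under the alternatives 577 kept their sign, the exceptions being Afp, Cyp2e1 and Pck1. Cyp2e1 and Pck1 were -0.60 and -0.99 with the replicate block, which cannot hold R-propranolol replicate 5. Tumors with the same number did not deviate together (correlations of -0.29, 0.08, -0.64 and 0.54), so the numbers were not taken as pairs, and under the replicate block 16 members were higher at an unadjusted p under 0.05.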

Other observations

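Of 7 fitted genes on a list for fetal liver and yolk sac, 4 were higher with R-propranolol and 3 lower, with a median log2 fold change of 0.15. Rhox5, an X-linked homeobox gene, had 3957, 2516, 4351, 3153 and 123 counts in R-propranolol-treated tumors and 3003, 3459, 3559 and 3607 counts in vehicle-treated tumors. It was thus low in the same tumor as Afp, Apob and Asgr1, and Igf2bp1, which had 221 to 308 counts in R-propranolol replicates 1 to 4 and 185 to 242 with vehicle, had 10 in that tumor. H19, an imprinted RNA of fetal tissues that skeletal muscle also makes, had 26470 counts in R-propranolol replicate 5, against 60 to 633 in the other treated tumors and 20 to 413 with vehicle, and Gpc3, a fetal proteoglycan, had 833, against 3 to 227 and 1 to 44. In log2 fold change these 4 genes were at -0.43, -0.07, 5.71 and 3.88.

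Lists for other cells gave the following in log2 fold change. Macrophage genes of the Kupffer list had a median of 1.2 over 5 fitted genes, with Cd163 at 0.72, Vsig4 at 2.36, Cd5l at 2.89 and Marco at 1.2, and Cd5l alone had an unadjusted p under 0.05, with 456 of its 701 counts in R-propranolol replicate 2. For the liver endothelial list Fcgr2b, Oit3 and Dnase1l3 were at 0.16, 0.38 and 0.89, and among general endothelial genes, with a median of 1.13 over 12, Tie1, Eng, Cdh5 and Pecam1 were at -0.08, 0.04, 0.25 and 0.86. All 11 fitted adipocyte genes were higher (Cfd 3.05, Fabp4 2.03, Plin4 1.06, Adipoq 3.18), as were all 13 fitted muscle genes (Acta1 7.33, Myh4 7.09, Atp2a1 7.85, Myh1 8.05), of which Eno3 and Casq1 had an unadjusted p under 0.05. Both directions rested on R-propranolol replicate 5: without it the muscle list summed to a mean of 56.3 CPM with R-propranolol and 299.7 CPM with vehicle, and the adipocyte list to 215.4 and 280.7 CPM. The lists of few fitted genes gave 0.64 for Hgf of stellate cells, -0.16 and 0.07 for Sox9 and Krt19 of bile ducts, -0.16, 0.76 and -0.35 for Cdh17, Muc2 and Vil1 of the intestine, -0.27 and -0.98 for Cubn and Slc12a1 of the kidney, -0.40 and -0.09 for Cela1 and Pnlip of the pancreas, -0.22 for Krt10 of keratinocytes and 0.64 for Alas2 of erythroid cells. No gene of these lists passed 0.05 after adjustment in edgeR.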
